A study of Homo sapiens with 4 samples.

Results

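MicroRNA host lncRNA genes are long non-coding genes whose transcripts contain the hairpins from which microRNAs (miRNAs) are cut. The genes were annotated as lncRNA, had a name that starts with MIR and ends with HG, and were selected on a mean normalized count over all libraries above 0. This rule gave 60 genes of the 32478 genes with a mean above 0, in a table of 51740 rows. A further 11 genes of this name and biotype had a mean of 0. The values that chose the genes were means over both fractions, so that the choice itself set no direction between the fractions. The member with the lowest mean was MIR4290HG, with a mean of 0.210 from 1 count in a single nuclear library.

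The measurements came from wildtype HEK293T cells, a line of human embryonic kidney cells that carries the SV40 large T antigen. The cells of both groups were crosslinked with formaldehyde before nuclei were parted from cytoplasm, and the RNA of 2 biological replicates per fraction was sequenced. The input to each library was 400 ng of RNA, from which the kit removed ribosomal RNA. A fold change therefore compares a gene's relative level in each fraction's RNA, after the authors' scaling of the libraries, and not amounts per cell. It is not a ratio of shares of the library totals, which differed after this scaling. In such bulk RNA, fewer cells with a transcript and less transcript per cell cannot be told apart. The p-values rest on 2 libraries against 2.

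In the canonical pathway, a host gene is transcribed by RNA polymerase II, and the Microprocessor, formed by DROSHA and DGCR8, cuts the hairpin out of the primary transcript inside the nucleus. Exportin-5 with RAN carries the hairpin to the cytoplasm, where DICER1 trims it to the mature miRNA of an Argonaute protein. Target mRNAs are then recognised mainly through the seed, bases 2 to 8 of the mature miRNA. What was sequenced here was the long host RNA, exons and introns counted together, and not the mature miRNA. The library kit kept the strand, but whether the authors counted by strand is not given in the sources used here, so reads from the opposite strand of a host may be included.

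All 60 genes were found in the GENCODE 44 annotation of hg38, and each held at least 1 miRNA gene on its own strand, 96 in all. A single miRNA gene lay in 39 of the hosts and several in the other 21, with up to 6 in MIR17HG. The miRNA lay in an exon of some annotated transcript of the host in 26 genes (called exonic here) and in introns alone in 29 genes (intronic). In 5 genes both kinds occurred (mixed). The largest group of hosts that shared a seed was that of let-7, the family that restrains growth genes such as RAS and LIN28. It held 6 hosts. Their mature sequences from RefSeq (GRCh38.p14) are given below, with the shared seed in capitals.

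let-7a-5p (MIRLET7A1HG, MIRLET7BHG, MIR100HG): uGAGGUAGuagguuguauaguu
let-7b-5p (MIRLET7BHG): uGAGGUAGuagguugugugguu
let-7c-5p (MIR99AHG): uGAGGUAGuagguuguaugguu
let-7d-5p (MIRLET7A1HG): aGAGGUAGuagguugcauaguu
let-7f-5p (MIRLET7A1HG): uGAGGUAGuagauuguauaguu
miR-4500 (MIR4500HG): uGAGGUAGuaguuucuu
miR-4458 (MIR4458HG): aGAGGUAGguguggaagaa

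The other sequences shown come from the hosts with the most uneven distribution, in both directions, and from host pairs that carry the same miRNA family. Capitals again mark the seed.

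miR-325 (MIR325HG): cCUAGUAGguguccaguaagugu
miR-181a-5p (MIR181A1HG, MIR181A2HG): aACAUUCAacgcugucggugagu
miR-181b-5p (MIR181A1HG, MIR181A2HG): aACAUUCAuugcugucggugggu
miR-221-3p (MIR222HG): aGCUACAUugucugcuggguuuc
miR-222-3p (MIR222HG): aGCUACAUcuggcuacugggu
miR-99a-5p (MIR99AHG): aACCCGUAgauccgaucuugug
miR-100-5p (MIR100HG): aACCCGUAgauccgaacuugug
miR-125b-5p (MIR99AHG, MIR100HG): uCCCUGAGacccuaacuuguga
miR-1915-3p (MIR1915HG): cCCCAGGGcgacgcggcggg
miR-600 (MIR600HG): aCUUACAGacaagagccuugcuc

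The host RNAs were mainly higher in the nucleus. At an adjusted p of at most 0.01 in the authors' DESeq2 test, 27 of the 52 tested hosts were higher in the nuclear fraction and 2, MIR1915HG and MIR600HG, were higher in the cytoplasmic fraction. Over all 23333 tested genes, 26.5% passed in the nuclear direction and 25.9% in the cytoplasmic direction. The other 23 tested hosts did not pass, and 8 more, with means of 0.210 to 1.62, had no adjusted p. The median log2 fold change (cytoplasmic over nuclear) of the tested hosts was -2.87, against -0.12 over all tested genes. It was -1.91 with hosts that had 3 counts or fewer in each library of a fraction set to their bound. In limma, leaving out either nuclear library left 0 hosts and 0 genes past an adjusted p of 0.01, with 29 hosts (without nuclear A) and 32 hosts (without nuclear B) at an unadjusted p under 0.05. The hosts together held 0.218% of the nuclear normalized counts and 0.0158% of the cytoplasmic ones. The 3 hosts with the highest nuclear counts made up 43.8% of the hosts' nuclear counts.

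The fractions were told apart by well-known RNAs. MALAT1 and NEAT1, lncRNAs retained in the nucleus, had log2 fold changes of -3.47 ± 0.13 (SE) and -3.09 ± 0.13, and GAPDH, a glycolytic mRNA, had 3.78 ± 0.12. NEFL and NEFM, neurofilament genes that HEK293 cells express, had means of 13195 and 16264, with PAX2 at 63.1 and LHX1 at 245 for kidney development. The blood markers PTPRC and CD3E and the liver markers ALB and APOA1 had means of 0.293 to 1.96. The normalized counts summed to 1.81e+07 per nuclear library and 2.87e+07 per cytoplasmic library, and scaling both to the same total lowered every log2 fold change by 0.66.

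Of the 52 tested hosts, 29 had a mean normalized count of 50 or more. Among these, 25 were higher in the nucleus, 2 were higher in the cytoplasm and 2 did not pass. Of all 13894 genes tested at this mean, 36.8% passed in the nuclear direction and 40.3% in the cytoplasmic direction. This mean pools both fractions, so that a gene could reach 50 through a single fraction. MIR325HG, for example, reached it through the nuclear libraries, with averages of 354 in the nucleus and 6.17 in the cytoplasm. Below a mean of 50, MIR100HG and MIR4527HG passed, both higher in the nucleus. The counts of single libraries could be solved from the authors' rounded values. Among the 29 hosts with a mean of 50 or more, the libraries of the fractions overlapped in 1. Separation in either direction was also common among all tested genes with solved counts. In 41 of the 52 hosts both nuclear libraries were above both cytoplasmic ones, against 46% of tested genes with solved counts. In 7 hosts both cytoplasmic libraries were above both nuclear ones, against 39.6% of those genes. In the other 4 the libraries overlapped.

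**Figure D1:**
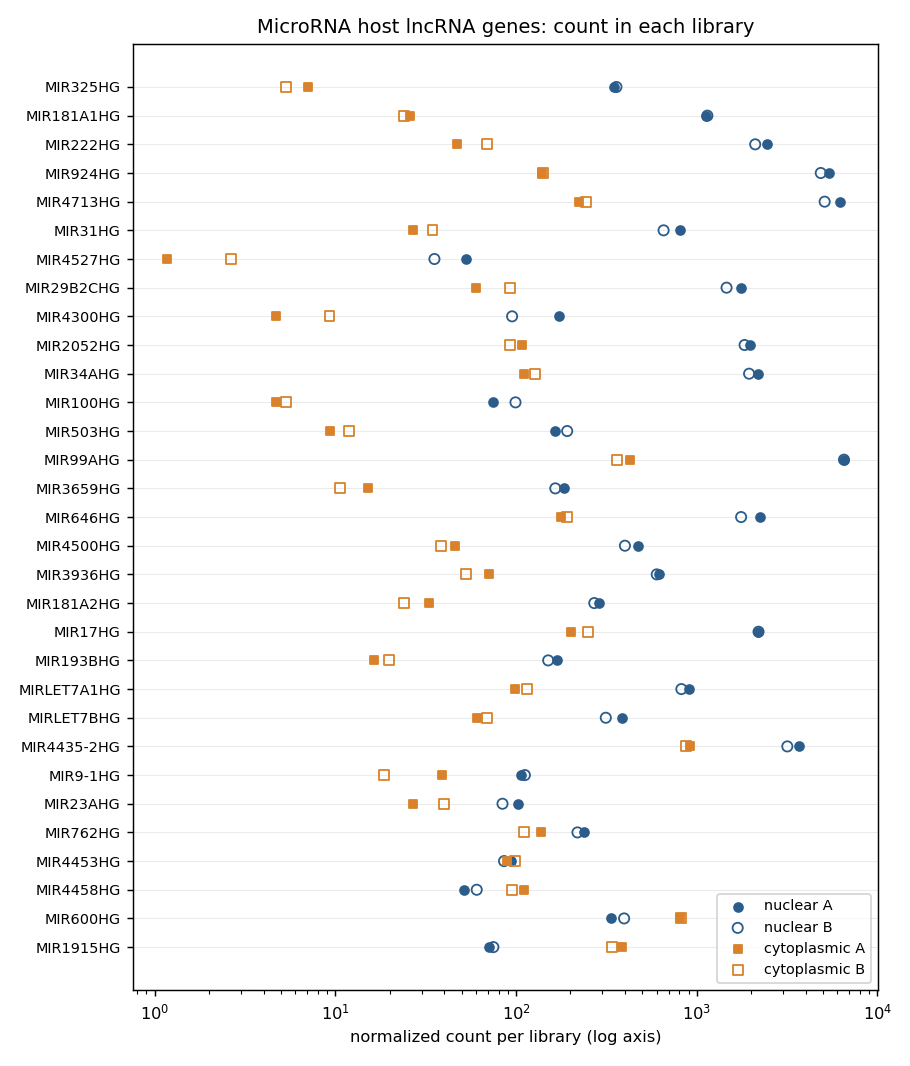
Normalized count in each of the 4 libraries (log axis) for the 31 host genes with a mean of 50 or more or an adjusted p of at most 0.01, ordered by fold change. Circles are nuclear and squares cytoplasmic libraries, A filled and B open; the nuclear circles lie to the right for all genes but MIR4453HG, where the libraries overlap, and MIR4458HG, MIR600HG and MIR1915HG, where the squares lie to the right.

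The hosts with the highest normalized counts, which are not divided by gene length, were long genes. MIR99AHG (ENSG00000215386, chr21:15928296-16646364, plus strand), host of miR-99a, let-7c and miR-125b-2, had normalized counts of 6504 and 6525 in the nuclear libraries and 428 and 363 in the cytoplasmic ones. Its log2 fold change was -4.04 ± 0.13 (SE, 2 libraries per fraction), with an adjusted p of 9.52e-219 in DESeq2. MIR4713HG (chr15:51037488-51293912, plus strand), with miR-4713 in an intron, had 6208 and 5102 in the nucleus and 223 and 244 in the cytoplasm. MIR924HG (chr18:39206917-39800322, minus strand), with intronic miR-924, had 5400 and 4855 in the nucleus and 140 in each cytoplasmic library. The lowest nuclear library of each was far above its highest cytoplasmic one. The log2 fold changes were -4.60 ± 0.15 for MIR4713HG and -5.20 ± 0.15 for MIR924HG.

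The hosts with the lowest log2 fold changes were MIR325HG, MIR181A1HG and MIR222HG. MIR325HG (chrX:76656866-77014532, minus strand), host of miR-325 and miR-384, had normalized counts of 350 and 359 in the nucleus and 7.04 and 5.30 in the cytoplasm. These are 469 and 427 counts against 6 and 4, so its log2 fold change of -5.83 ± 0.51 was also the least precise of the 3. MIR181A1HG (chr1:198777861-198937471, minus strand) had 1124 and 1144 in the nucleus and 25.8 and 23.9 in the cytoplasm, a log2 fold change of -5.51 ± 0.27. MIR222HG (chrX:45745210-45770274, minus strand) makes miR-221 and miR-222, which repress the cell cycle inhibitor CDKN1B. It had 2442 and 2106 in the nucleus and 46.9 and 68.9 in the cytoplasm, with a log2 fold change of -5.31 ± 0.21. Of all tested genes, 0.900% had a lower log2 fold change than MIR222HG.

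MIR17HG, MIR34AHG, MIR29B2CHG and MIR31HG, hosts of well-studied tumour-related miRNAs, were also higher in the nucleus. Other hosts of well-known miRNAs, such as MIR22HG and MIR210HG, did not pass. MIR17HG (chr13:91347686-91397592, plus strand) carries the growth-promoting cluster of miR-17, miR-18a, miR-19a, miR-20a, miR-19b-1 and miR-92a-1. It had 2188 and 2196 in the nucleus and 201 and 249 in the cytoplasm, a log2 fold change of -3.29 ± 0.15. MIR34AHG (chr1:9148011-9198906, minus strand), host of the p53-induced miR-34a, had 2184 and 1948 in the nucleus and 110 and 127 in the cytoplasm, a log2 fold change of -4.12 ± 0.17. MIR29B2CHG, host of miR-29b-2 and miR-29c, which repress collagen genes, had 1752 and 1461 in the nucleus and 59.8 and 92.8 in the cytoplasm. MIR31HG, host of miR-31, had 807 and 655 in the nucleus and 27.0 and 34.5 in the cytoplasm. The fractions did not overlap in any of these genes. The log2 fold changes were -4.41 ± 0.21 for MIR29B2CHG and -4.58 ± 0.28 for MIR31HG.

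Most hosts of the let-7 seed were higher in the nucleus. MIRLET7A1HG had 911 and 822 in the nucleus and 98.5 and 115 in the cytoplasm, a log2 fold change of -3.02 ± 0.20. MIRLET7BHG had 386 and 314 in the nucleus and 61.0 and 68.9 in the cytoplasm, and its log2 fold change was -2.43 ± 0.27. MIR4500HG had 474 and 400 in the nucleus and 45.7 and 38.4 in the cytoplasm, with a log2 fold change of -3.37 ± 0.27. MIR100HG, host of miR-100, let-7a-2 and miR-125b-1, had 74.6 and 99.2 in the nucleus and 4.69 and 5.30 in the cytoplasm, a log2 fold change of -4.12 ± 0.67. With MIR99AHG, 5 of the 6 let-7 seed hosts were thus higher in the nucleus. Of all 29 hosts with a mean of 50 or more, 25 were. In this direction 26.5% of all tested genes passed, and 36.8% of those with a mean of 50 or more. Among the let-7 seed hosts MIR4458HG was the exception, with 51.5 and 60.5 in the nucleus and 110 and 95.4 in the cytoplasm. Both of its cytoplasmic libraries were above both nuclear ones. Its log2 fold change of 0.88 ± 0.36 did not pass the threshold (adjusted p = 0.0243 in DESeq2). This log2 fold change was 0.22 with equal library totals and 0.77 when centred on the protein-coding median.

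**Figure D2:**
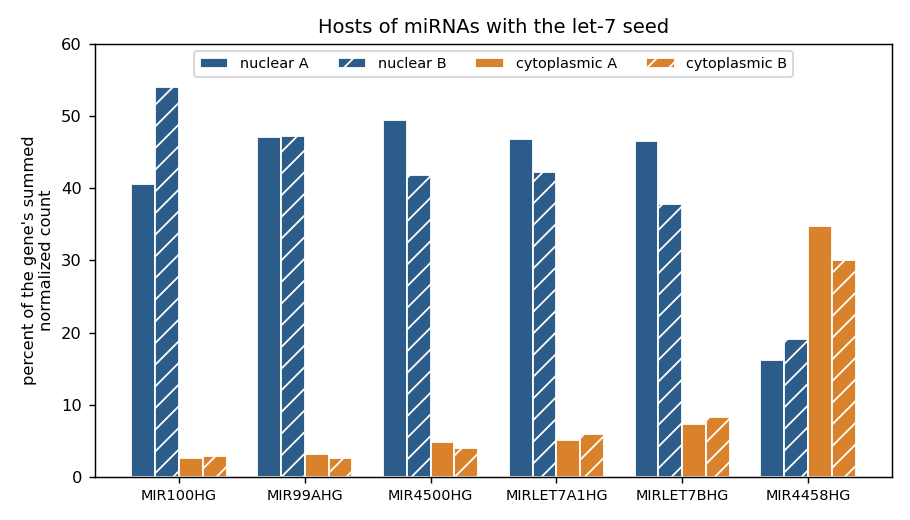
Share of each host's summed normalized count that fell in each of the 4 libraries, in percent, for the 6 hosts of a miRNA with the let-7 seed; solid bars are library A and hatched bars library B of each fraction. The cytoplasmic bars lie between 2.55 and 8.31% in 5 hosts, and at 34.7 and 30.04% in MIR4458HG.

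Hosts of paired copies of a miRNA could be set side by side. MIR181A1HG and MIR181A2HG both carry a copy of miR-181a and miR-181b. MIR181A2HG had 288 and 271 in the nucleus and 32.8 and 23.9 in the cytoplasm, a log2 fold change of -3.29 ± 0.33 against -5.51 ± 0.27 for MIR181A1HG. In the cytoplasm the normalized counts of this pair were alike, while the nuclear counts of MIR181A1HG averaged 1134 and those of MIR181A2HG 279. MIR99AHG and MIR100HG, which carry the related miR-99a and miR-100 beside let-7 and miR-125b, had log2 fold changes of -4.04 ± 0.13 and -4.12 ± 0.67. Their levels were far apart, with means of 3455 and 45.9, and the larger SE of MIR100HG went with its 4 counts in each cytoplasmic library. MIR9-1HG, host of the neural miR-9, had 106 and 112 in the nucleus and 38.7 and 18.6 in the cytoplasm. Its log2 fold change was -1.91 ± 0.43. As a ratio of means with a pseudocount of 0.5 it was -1.91 with all libraries and -2.52 without cytoplasmic library A. MIR9-3HG, with a second copy of miR-9, had a log2 fold change of -2.93 ± 2.21 and did not pass.

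Other hosts higher in the nucleus carry less studied miRNAs or shorter clusters. MIR646HG had 2231 and 1759 in the nucleus and 177 and 191 in the cytoplasm. MIR2052HG had 1969 and 1839 in the nucleus and 108 and 92.8 in the cytoplasm. Both are long hosts with intronic miRNAs, and their log2 fold changes were -3.44 ± 0.17 and -4.24 ± 0.18. MIR3936HG had 617 and 600 in the nucleus and 70.4 and 53.0 in the cytoplasm, a log2 fold change of -3.30 ± 0.23. MIR193BHG, host of miR-193b and miR-365a, had 168 and 151 in the nucleus and 16.4 and 19.9 in the cytoplasm, a log2 fold change of -3.14 ± 0.41. MIR3659HG had 183 and 165 in the nucleus and 15.2 and 10.6 in the cytoplasm, a log2 fold change of -3.74 ± 0.44. In all of them the nuclear libraries were well above the cytoplasmic ones.

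Some nuclear calls rested on few cytoplasmic counts. MIR4300HG had 173 and 95.02 in the nucleus and 4.69 and 9.28 in the cytoplasm. The relative gap between its nuclear replicates was the widest among hosts with a mean of 50 or more. The log2 fold change of MIR4300HG was -4.29 ± 0.59. MIR4527HG had 71 and 42 counts in the nucleus and 1 and 2 in the cytoplasm. The ratio of its summed normalized counts was 23.9, with an exact 95% interval from 7.98 to 118 that covers counting error only. Its log2 fold change was -4.56 ± 1.03. MIR663AHG, with 32 counts in the nucleus and 1 in the cytoplasm, did not pass (adjusted p = 0.0279 in DESeq2). Reads of this gene, of the MIR1302 and MIR548 hosts and of MIR4435-2HG may be shared with similar sequences elsewhere in the genome.

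Among the hosts called higher in the nucleus, the difference was smallest for MIR762HG, MIR23AHG, MIR9-1HG (described above) and MIR4435-2HG. MIR4435-2HG (chr2:111006015-111523376, minus strand) had high counts in both fractions, with 3662 and 3170 in the nucleus and 915 and 868 in the cytoplasm. Its log2 fold change was -1.94 ± 0.13, and it held the highest cytoplasmic counts of all hosts. MIR23AHG, which carries miR-23a, miR-27a and miR-24-2, had 102 and 84.1 in the nucleus and 27.0 and 39.8 in the cytoplasm, a log2 fold change of -1.49 ± 0.42. MIR762HG had 237 and 219 in the nucleus and 137 and 110 in the cytoplasm, a log2 fold change of -0.88 ± 0.26. For MIR4435-2HG, MIR23AHG and MIR762HG the replicates of the fractions still did not overlap. The adjusted p was 9.02e-04 for MIR23AHG and 0.00133 for MIR762HG in DESeq2.

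The hosts higher in the cytoplasm were short genes. MIR1915HG (ENSG00000204682, chr10:21490272-21497260, minus strand) had 70.8 and 74.8 in the nucleus and 385 and 341 in the cytoplasm. Its log2 fold change was 2.32 ± 0.24, with an adjusted p of 2.87e-21 in DESeq2. Its hairpin starts 619 bases from the start of the gene, inside an intron. MIR600HG (ENSG00000236901, chr9:123109494-123115477, minus strand) had 334 and 396 in the nucleus and 811 and 814 in the cytoplasm, a log2 fold change of 1.16 ± 0.16 with an adjusted p of 8.02e-12. Its hairpin lies in an exon, 3834 bases from the start. They span 6.99 and 5.98 kb. MIR4453HG, of 3 kb, had 93.2 and 85.8 in the nucleus and 89.1 and 98.1 in the cytoplasm. These libraries overlapped, and its log2 fold change of 0.06 ± 0.33 did not pass.

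MIR503HG (chrX:134543119-134546642, minus strand) differed from those short genes. With a span of 3.52 kb, it had 164 and 192 in the nucleus and 9.38 and 11.9 in the cytoplasm, a log2 fold change of -4.07 ± 0.47. Its hairpin, for miR-503, begins 244 bases from the start of the gene and lies in an exon of some transcripts.

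The remaining hosts had low counts. In all, 29 hosts had a mean under 50 and no call, with means from 0.210 to 28.8, and 21 of them were tested. The log2 fold change of these 21 was below 0 in 15 and above 0 in 6, from -4.32 to 1.65, with SEs of 0.58 to 2.49. The highest means were those of MIR22HG and MIR210HG. MIR22HG had 38.8 and 37.8 in the nucleus and 19.9 and 18.6 in the cytoplasm. MIR210HG, whose miRNA is induced by hypoxia, had 17.9 and 18.5 against 32.8 and 37.1. These hosts pointed in opposite directions, at -0.99 ± 0.58 and 0.94 ± 0.59, and neither passed.

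**Figure D3:**
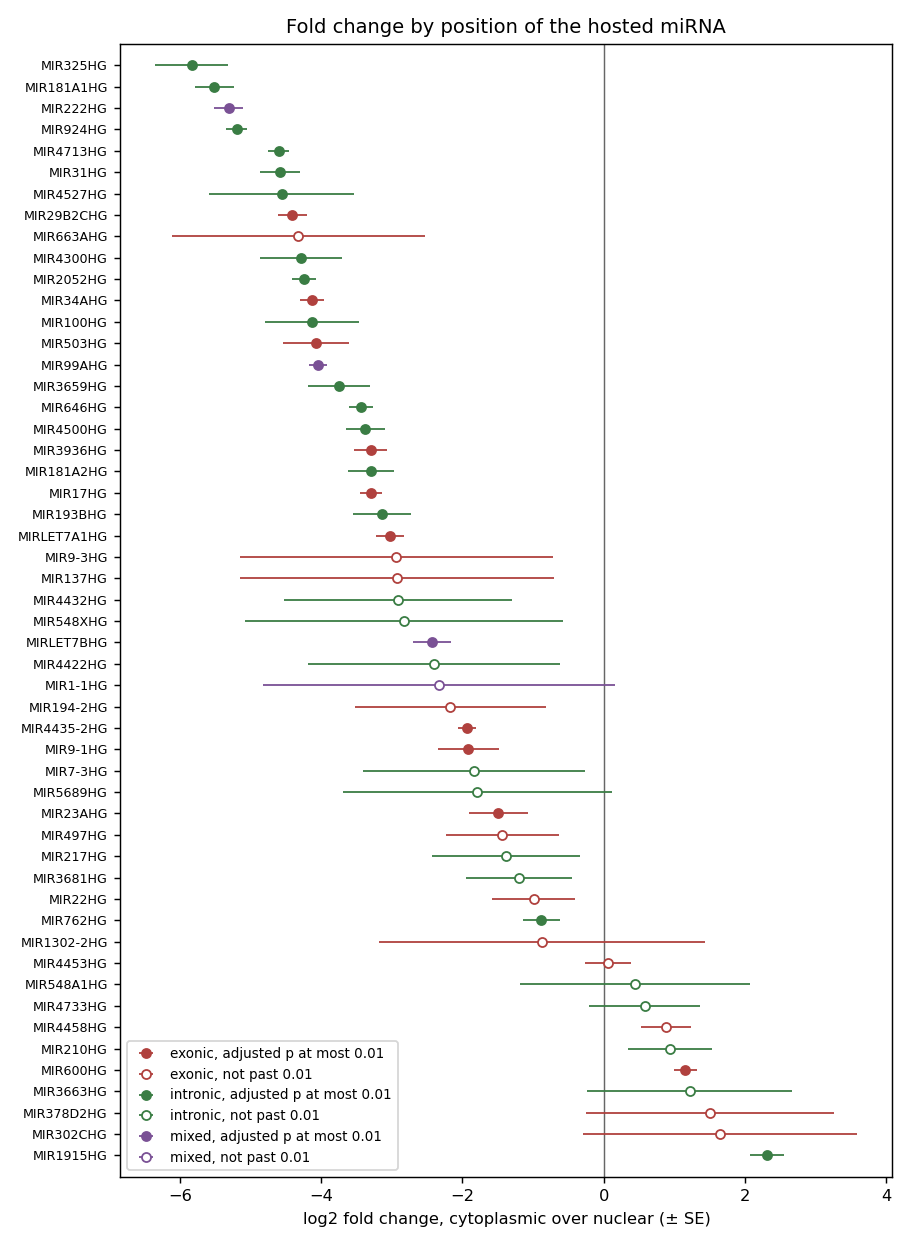
Log2 fold change (cytoplasmic over nuclear) with its SE for the 52 tested hosts, coloured by the position of the hosted miRNA; filled points had an adjusted p of at most 0.01. Points left of 0 are higher in the nucleus; the filled points are 27 to the left and 2, MIR600HG and MIR1915HG, to the right.

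The hosts were then divided by the position of the miRNA. Among 27 tested hosts with intronic miRNAs, 15 were higher in the nucleus and 1 in the cytoplasm, with a median log2 fold change of -3.14. Among 21 with exonic miRNAs, 9 were higher in the nucleus and 1 in the cytoplasm, with a median of -1.94. Of the 4 mixed hosts, 3 were higher in the nucleus. The shares over all tested genes were 26.5% in the nuclear and 25.9% in the cytoplasmic direction. At a mean of 50 or more the medians were -3.99 for 14 intronic and -2.48 for 12 exonic hosts, whose median spans were 202 and 43.1 kb. The difference between the positions was not tested. If an exon was taken from the canonical transcript alone, only 7 hosts were exonic, with a median of -0.99, and the median of the 41 intronic ones was -3.14.

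The hosts could also be split by the number in their name, which reflects when a miRNA was registered. The median log2 fold change was -2.93 for 34 hosts of let-7 or of miRNAs numbered below 1000, of which 19 were higher in the nucleus and 1 in the cytoplasm. For 18 hosts with numbers of 1000 or above the median was -2.17, with 8 higher in the nucleus and 1 in the cytoplasm. At a mean of 50 or more the medians were -3.44 for 19 hosts and -3.33 for 10 hosts. The difference between these classes was not tested. Of all tested genes, 26.5% passed in the nuclear and 25.9% in the cytoplasmic direction.

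Log2 fold changes were lower in genes of longer span. Across the 29 hosts with a mean of 50 or more, Spearman's rho between span and log2 fold change was -0.59, and across 1245 other lncRNA genes at this mean it was -0.65. These are descriptions over genes that share the same 4 libraries. Between the summed exon length and log2 fold change, rho was 0.02 for the hosts and -0.06 for the other lncRNA genes. Of 12 hosts spanning 100 kb or more, 12 were higher in the nucleus, and their median log2 fold change was -4.35. Of 361 other lncRNA genes of that span, 93.9% were higher in the nucleus, with a median of -3.42. In the span of 10 to 100 kb, 12 of 13 hosts were higher in the nucleus (median -3.14), against 67.4% of 570 other lncRNA genes (median -1.73). Of the 4 hosts under 10 kb, 1 was higher in the nucleus and 2 in the cytoplasm, against 24.2% and 46.2% of 314 other lncRNA genes.

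**Figure D4:**
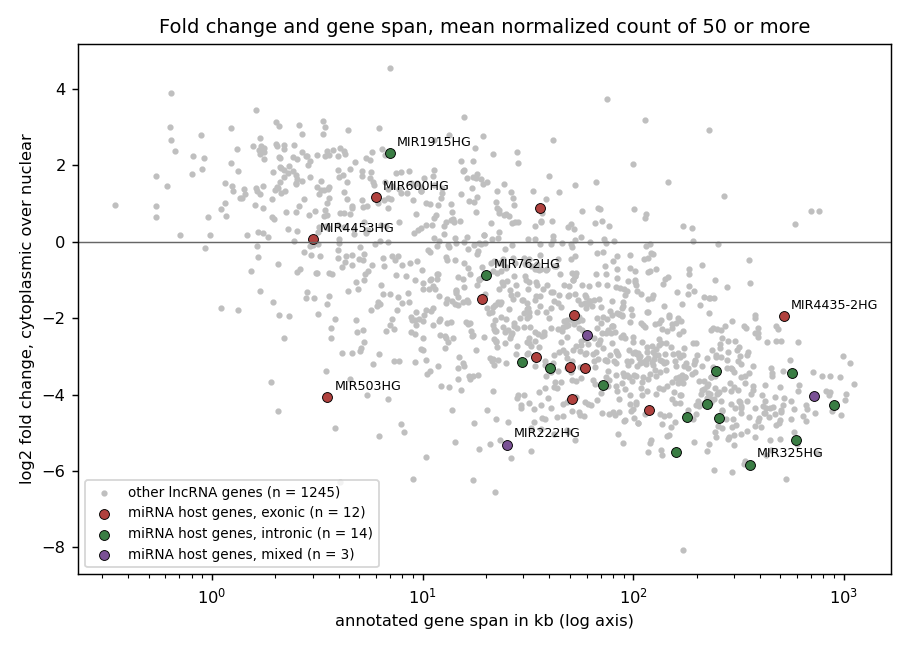
Log2 fold change (cytoplasmic over nuclear) against annotated gene span in kb (log axis) for genes with a mean of 50 or more; each point is a gene, hosts coloured by the position of the miRNA and 1245 other lncRNA genes in grey. The hosts of 100 kb or more all lie below 0, and MIR503HG, at 3.52 kb, lies at -4.07.

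The hosts were longer than other lncRNA genes. At a mean of 50 or more, their median span was 58.9 kb against 36.3 kb for 1256 other lncRNA genes, their median summed exon length 6.46 against 3.60 kb, and their median number of annotated transcripts 9 against 5. Their normalized counts, which are not divided by gene length, were also higher, with a median of 335 against 132. The median log2 fold change at this mean was -3.37 for the hosts and -1.86 for the other lncRNA genes, of which 64.2% were higher in the nucleus and 16.6% in the cytoplasm. Host genes of small nucleolar RNAs, the SNHG genes, also carry small RNAs within a longer transcript. Of 24 tested SNHG genes, 4 were higher in the nucleus and 13 in the cytoplasm, with a median log2 fold change of 0.81. Their median span was 6.84 kb. The median share of a gene's span that was intron was 56.2%, against 90.8% for the tested miRNA hosts.

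RNAs of the genes for proteins that process miRNAs were measured in the same libraries. Their exons and introns were counted together, so spliced mRNA and unspliced RNA were not told apart. Of 14 such genes, 6 were higher in the nucleus, 6 in the cytoplasm and 2 did not pass, with a median log2 fold change of -0.02. With all 14 means above 50, these counts stand beside the 36.8% and 40.3% of genes at that mean that passed in the nuclear and cytoplasmic directions. The RNAs of both Microprocessor subunits were higher in the nucleus, at -1.28 ± 0.12 for DROSHA and -2.04 ± 0.12 for DGCR8. Those of the exporter were higher in the cytoplasm, at 0.78 ± 0.12 for XPO5 and 3.04 ± 0.12 for RAN. DICER1 did not pass, at 0.10 ± 0.11, while its partners TARBP2 and PRKRA were at 1.64 ± 0.15 and 0.68 ± 0.16, higher in the cytoplasm. Of the Argonautes, AGO1 (0.83 ± 0.11) and AGO2 (0.74 ± 0.12) were higher in the cytoplasm, AGO3 (-1.56 ± 0.12) in the nucleus, and AGO4 (-0.13 ± 0.13) did not pass. The RNAs of TNRC6A, TNRC6B and TNRC6C, scaffold proteins of silencing, were higher in the nucleus, at -1.999 ± 0.11, -1.12 ± 0.11 and -1.28 ± 0.12.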

How the data were processed

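RNA of nuclear and cytoplasmic fractions of HEK293T cells was sequenced in paired reads of 100 nt, with 2 libraries per fraction. The authors aligned the reads to hg38 with STAR and counted them with featureCounts 2.0.2 over exons and introns of a GENCODE 34 annotation, extended with NCBI genes, from which stretches covered by several genes were removed. They compared the fractions with DESeq2, whose version is not given in the sources used here. The deposited signal is the authors' mean of normalized counts over all 4 libraries. The deposited log2 fold change (cytoplasmic over nuclear) and its SE, the score (the Wald statistic of the authors) and the deposited p-value with its adjusted form come from the same fit. Since the table holds only that comparison, the authors' adjusted p of at most 0.01 was the test used, in place of a count test.

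The whole counts of each library were solved from the deposited mean, fold change and SE. Combinations of 4 steps, each worth 1 count in 1 library, were listed, and a combination was kept where a refitted negative binomial model gave the deposited fold change within 2e-09. This gave counts for 31635 of 31851 genes with a mean up to 5000 and for all 60 members, and the solver was tested on simulated data. The libraries are called A and B, since their replicate numbers are not known from the table. The size factors were 1.34 and 1.19 (nuclear) and 0.853 and 0.755 (cytoplasmic). On the genes solved, which are part of each library and not its depth, the counts were 1.82e+07, 1.57e+07, 1.16e+07 and 1.06e+07. Intervals cover counting error only.

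Spans, exons and miRNA genes came from GENCODE 44 on hg38 and mature sequences from RefSeq. The counted lengths can be shorter than the spans. The members and lists were chosen with earlier results of these data known. Hosts with an adjusted p and a mean of 50 or more, and any other host past the threshold, were named with their values; hosts below that which are named beside them were chosen after their values were seen. The alternatives included limma 3.58.1 in R on log2(normalized count + 0.5) over 22490 genes, likewise tested.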

Additional observations from a re-analysis of the deposited data

How the results depend on the processing

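The count of hosts higher in the nucleus (27) stayed between 23 and 29 and that of hosts higher in the cytoplasm (2) between 2 and 3 with an adjusted p of 0.05, Bonferroni adjustment, equal library totals, centring on the protein-coding median, a minimum mean of 50, limma with all libraries and, chosen after seeing the data, without hosts that have near-identical copies. All 29 calls were shared with limma, which added MIR4458HG and MIR663AHG. With 1 library left out in limma, where the lone library is assumed to vary like the others, the nuclear count ranged from 0 to 31 and the cytoplasmic count from 0 to 2. The 0 arose without nuclear library A and without nuclear library B, where limma called 0 of 22490 genes. There the unadjusted p was under 0.05 for 29 and 32 hosts, and the lowest adjusted p of a host was 0.0138 and 0.0122. A single pair of replicates remained to estimate the spread in these fits.

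The median log2 fold change of -2.87 was -3.37 at a minimum mean of 50, -2.42 over every host with a fold change, -3.53 with equal totals and -1.91 with hosts near the floor of 3 counts at their bound. Chosen after seeing the data, the median of ratios of means with a pseudocount of 0.5 was -2.26 with all libraries and -2.27 without nuclear library A, -2.41 without nuclear library B, -2.94 without cytoplasmic library A and -2.21 without cytoplasmic library B. The exonic median of -1.94 was -0.99 with the canonical transcript. Of 31 named hosts, leaving out 1 library moved the ratio of means by over 1.5 times for MIR9-1HG alone (-1.91 with all libraries and -2.52 without cytoplasmic library A). With a pseudocount of 5, the ratio of means differed from the DESeq2 log2 fold change by more than its SE for 5 of the 31. It was -2.83 against -4.56 for MIR4527HG, -3.20 against -4.12 for MIR100HG and -5.01 against -5.83 for MIR325HG. For MIR503HG it was -3.55 against -4.07, and for MIR4300HG -3.54 against -4.29. No called host changed direction under any of these settings. Which libraries share a replicate number is not known, so limma was run with a replicate block for both possible pairings, added after seeing the data. It called 29 hosts higher in the nucleus and 3 in the cytoplasm with A paired to A, and 32 and 3 with A paired to B. The count tests planned for a table of counts were not run.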
